A study of Homo sapiens with 18 samples.

Results

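The 9 genes described here encode enzymes that metabolise foreign and endogenous compounds. They are the carboxylesterases CES1 and CES2, the cytochromes P450 CYP1A1, CYP1B1, CYP2W1, CYP24A1 and CYP4F11, and the conjugating enzymes UGT1A6 and GSTP1. The set was chosen by name, with earlier results of these data known, and taken as the rows whose Ensembl identifier maps to these genes. All 9 were found in each count table, out of 60649 genes for PC9 and 60603 for H1650. PC9 and H1650 are human lung adenocarcinoma lines with an activating EGFR mutation, and the study concerns S100A9 in their brain metastatic derivatives. Poly-A RNA was sequenced in 3 groups per line, 3 libraries each: Tr-BrM S100A9-inh, Tr-BrM control and BrM control. The labels give BrM or Tr-BrM as the condition and control or S100A9-inh as the treatment. What Tr stands for, how S100A9 was inhibited, whether each derivative is 1 clone and whether libraries came from separate cultures is information not given in the sources used here. All groups are derivatives of their line, so the unselected parent line is no part of any comparison. The samples include no BrM group with S100A9-inh.

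Drug and toxicant metabolism runs in stages. Carboxylesterases cleave ester and amide bonds, cytochromes P450 oxidise their substrates with electrons passed on by a reductase, and transferases then attach glucuronic acid, sulfate or glutathione so that the product can leave the cell. These enzymes are best known from liver and gut, but airway epithelium and lung tumours hold several of them. CYP1A1 and CYP1B1 are textbook targets of the aryl hydrocarbon receptor, a sensor of planar aromatic compounds. CYP24A1, which degrades active vitamin D, is the textbook target of the vitamin D receptor.

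Libraries held 18.17 to 21.75 M counts in PC9 and 17.40 to 27.11 M in H1650. S100A9 was at 30.43 to 35.45 CPM in PC9 S100A9-inh, 738.2 to 759.1 CPM in Tr-BrM control and 118.7 to 126.6 CPM in BrM control, and at 88.21 to 105.1, 292.2 to 336.2 and 198.9 to 216.8 CPM in H1650. It thus followed its label in both lines, falling by 4.49 and 1.67 on the log2 scale in S100A9-inh against Tr-BrM control. Pan-epithelial markers summed to at least 19990 CPM in every PC9 library and at least 8807 CPM in every H1650 library. The 7 lung epithelial markers summed to 2.807 to 4.011 CPM in S100A9-inh, 13.55 to 16.1 CPM in Tr-BrM control and 5.294 to 7.046 CPM in BrM control of PC9, and to 23.97 to 26.46, 24.99 to 26.96 and 6.097 to 7.687 CPM in H1650. NKX2-1 and SFTPC averaged under 1 CPM in all 6 groups, while AGER carried most of the H1650 sum and SLC34A2 most of that in PC9 Tr-BrM control. The hepatocyte markers ALB, TTR and APOA2 were at 0 in every PC9 group and at or near 0 in every H1650 group. The 6 hepatocyte markers summed to at most 0.6446 CPM in any PC9 library, and in H1650 to 1.189 to 2.447 CPM in S100A9-inh, 1.798 to 2.6 CPM in Tr-BrM control and 6.459 to 8.491 CPM in BrM control. SERPINA1 and TF carried most of the H1650 sum. SERPINA1 averaged 0.822, 0.71 and 6.956 CPM there and TF 0.828, 1.307 and 0.155 CPM, in the same order. In H1650, markers of other cell types moved with the groups. The 6 fibroblast markers summed to 180.8 to 189.3 CPM in S100A9-inh, 159.3 to 179.7 CPM in Tr-BrM control and 23.13 to 23.29 CPM in BrM control, with 0, 0 and 3 of them under 1 CPM. The 5 astrocyte markers summed to 169.4 to 180.9, 225.9 to 236.8 and 31.7 to 40.47 CPM and the 6 leukocyte markers to 4.601 to 6.755, 9.134 to 10.57 and 1.893 to 2.365 CPM in the same order. In PC9 the astrocyte sum was 34.16 to 37.66 CPM in S100A9-inh, 97.75 to 102.8 CPM in Tr-BrM control and 15.37 to 16.53 CPM in BrM control, nearly all of it SLC1A3, with AQP4 at 0 in both Tr-BrM groups. The PC9 fibroblast sum, mostly COL1A1, was 17.3 to 20.13, 12.83 to 15.1 and 26.66 to 27.17 CPM, and the PC9 leukocyte sum stayed at or under 1.936 CPM. The part of these markers in the results below was not tested. In such bulk libraries fewer expressing cells and less RNA per cell cannot be told apart.

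Levels are in CPM, a gene's count relative to its library's total after edgeR's TMM scaling, and changes are log2 fold changes ± SE (n = 3 libraries against 3). "Rose" and "fell" stand for an adjusted p under 0.05 in edgeR's quasi-likelihood test with Benjamini-Hochberg adjustment over all genes tested, 16169 in PC9 and 17937 in H1650. Of the 9 genes, 8 passed the low-count filter in PC9, where CYP1A1 did not, and 6 in H1650, where CES1, CYP4F11 and UGT1A6 did not.

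**Figure D1:**
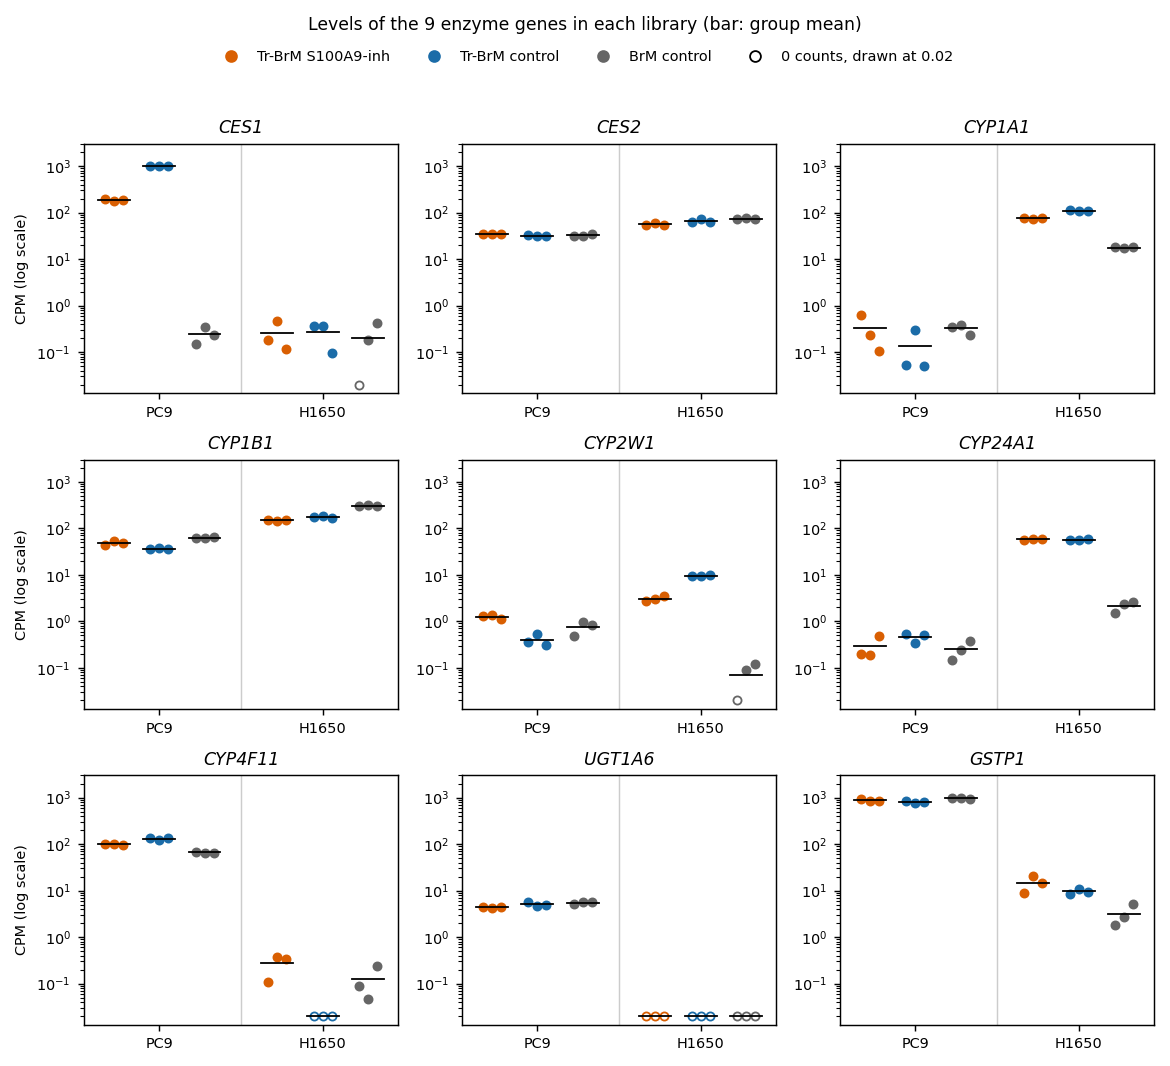
Level of each of the 9 genes in every library, in CPM on a log axis. Within each line the groups run from Tr-BrM S100A9-inh through Tr-BrM control to BrM control; the bar is the group mean and open points are libraries with 0 counts. CYP4F11 and UGT1A6 are present in all PC9 groups and near or at 0 in H1650, and CES1 is high in the Tr-BrM groups of PC9 only, near 0 in PC9 BrM control and in H1650.

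The lines used different sets of these genes. Per kilobase of annotated exon, levels of different genes can be compared roughly. The length counts all annotated exons and not the transcript expressed, so close ranks, such as CYP1A1 and CYP1B1 below, are uncertain. GSTP1 was the highest of the 9 in PC9 in all groups. Its mean levels were 452.3 CPM per kb in S100A9-inh, 421.0 in Tr-BrM control and 500.8 in BrM control. In PC9 Tr-BrM control it was followed by CES1 at 342.3 CPM per kb and CYP4F11 at 32.13. CYP1B1 at 6.033 and CES2 at 5.985 CPM per kb came next in that group, and their libraries overlapped. In PC9 BrM control CES1 was instead among the lowest, at 0.0817 CPM per kb. In H1650 CYP1B1 led in S100A9-inh at 24.8 CPM per kb and in BrM control at 50.2, whereas in Tr-BrM control CYP1A1 at 31.6 CPM per kb stood above CYP1B1 at 28.99, without overlap between libraries. CYP24A1 at 14.3 and CES2 at 12.3 CPM per kb followed in that group. GSTP1 was at 5.01 CPM per kb there.

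In PC9 Tr-BrM control against BrM control, 2 of the 8 tested genes rose (CES1 and CYP4F11), 2 fell (CYP1B1 and GSTP1) and 4 did not pass, while 29.6% of all tested genes rose and 30.3% fell. In S100A9-inh against Tr-BrM control 3 rose (CYP1B1, CYP2W1 and GSTP1), 2 fell (CES1 and CYP4F11) and 3 did not pass, against 26.3% and 26.1% of all genes. In S100A9-inh against BrM control 2 rose (CES1 and CYP4F11), 3 fell (CYP1B1, UGT1A6 and GSTP1) and 3 did not pass, against 22.7% and 23.6%. In H1650 Tr-BrM control against BrM control 4 of 6 rose (CYP1A1, CYP2W1, CYP24A1 and GSTP1) and 2 fell (CES2 and CYP1B1), against 32.2% and 31.7% of all genes. In H1650 S100A9-inh against Tr-BrM control 1 rose (GSTP1), 4 fell (CES2, CYP1A1, CYP1B1 and CYP2W1) and 1 did not pass (CYP24A1), against 15.4% and 13.8%. In H1650 S100A9-inh against BrM control the 4 genes that were higher in Tr-BrM control rose and the other 2 fell, against 32.5% and 31.2%. Most genes changed between the BrM and Tr-BrM controls of either line, so a call by itself sets no gene here apart, and the sizes of the changes carry the description. The S100A9-inh against Tr-BrM and Tr-BrM against BrM comparisons share the Tr-BrM libraries, so their opposite signs are not independent.

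**Figure D2:**
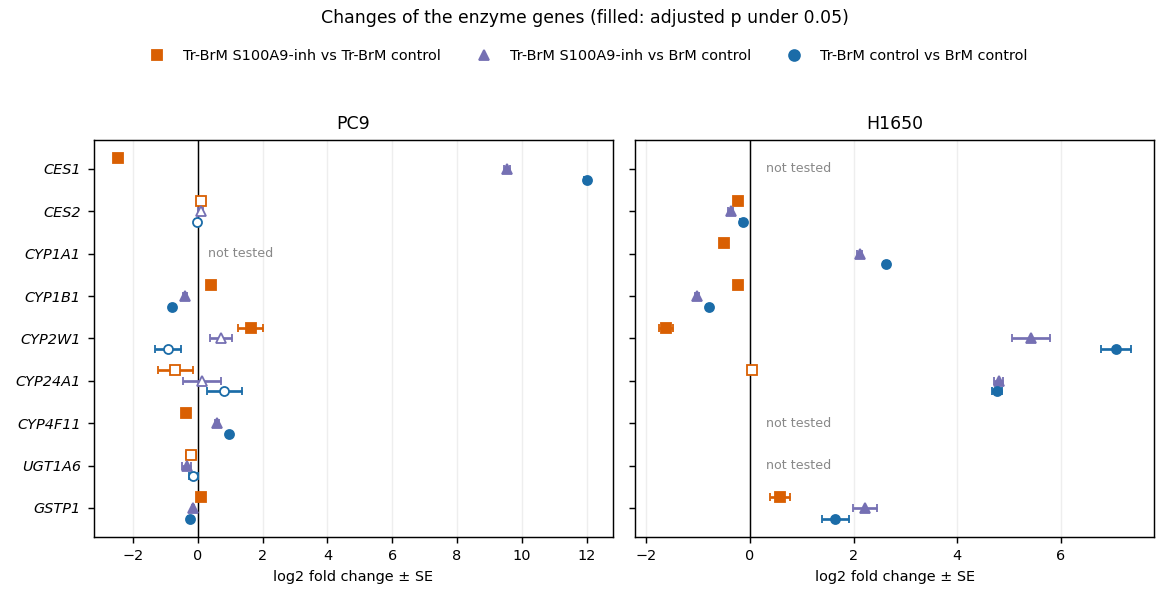
Log2 fold change ± SE of each tested gene in the 3 comparisons of each line; filled symbols passed an adjusted p of 0.05 and the horizontal scales differ between the panels. CES1 in PC9 reaches 11.996 in Tr-BrM control against BrM control, and CYP2W1 and CYP24A1 in H1650 reach 7.06 and 4.77. The SE bars of these changes are narrower than counting error alone.

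CES1 (ENSG00000198848, GRCh38 chromosome 16, 55802851 to 55833337, reverse strand) encodes the main carboxylesterase of liver, which also hydrolyses cholesteryl esters and many ester drugs. In PC9 it was at 191.7, 178.5 and 181.8 CPM in S100A9-inh, 1023, 993.4 and 999.6 CPM in Tr-BrM control, and 0.147, 0.340 and 0.232 CPM in BrM control. The 3 groups lay far apart with no overlap, and the BrM libraries held 15 counts in all. CES1 rose by 11.996 in Tr-BrM control against BrM control (adjusted p = 4.93e-39, edgeR), the highest log2 fold change of all 16169 genes tested. The count ratio was 4190 with a 95% counting interval from 2540 to 7480. That interval is wider than the SE of 0.0856 from the test statistic would give. CES1 fell by 2.45 ± 0.0385 in S100A9-inh against Tr-BrM control (adjusted p = 1.56e-29, edgeR), to a level 5.46-fold lower. This level still was 767-fold above BrM control (counting interval 465 to 1370). In H1650 CES1 had 0 to 11 counts per library and averaged 0.254, 0.276 and 0.199 CPM in S100A9-inh, Tr-BrM control and BrM control, with overlapping libraries.

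Of the 31-base words in annotated CES1 transcripts, 36.4% also occur in those of the neighbouring pseudogene CES1P1, so some reads cannot be assigned to 1 of them. CES1P1 averaged 0.780 CPM in PC9 S100A9-inh and 4.73 CPM in Tr-BrM control and had 0 counts in BrM control, which makes it at least 98-fold higher in Tr-BrM control than the floor of 3 counts over the BrM group. Its counts were a small fraction of those of CES1 and moved the same way. By likeness of pattern over the 9 PC9 libraries (root mean square difference of centred log2 CPM among 11055 genes at 5 CPM or more in a group), the genes nearest to CES1 were the amino acid transporter SLC6A14, the keratin KRT23 and the imprinted RNA H19. SLC6A14 averaged 24.2, 98.1 and 0.0487 CPM, KRT23 15.7, 160 and 0.112 CPM and H19 38.6, 327 and 0.769 CPM in S100A9-inh, Tr-BrM control and BrM control. They lay 0.963 to 1.61 log2 units from CES1, with the same order of groups but a smaller range, and their Pearson r with it was 0.998, 0.989 and 0.986 over the 9 libraries, which share the 3 groups.

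CES2 (ENSG00000172831, chromosome 16, 66934444 to 66945096, forward strand), the intestinal carboxylesterase that converts the prodrug irinotecan, was at 34.89, 33.8 and 34.59 CPM in PC9 S100A9-inh, 32.86, 31.67 and 31.4 CPM in Tr-BrM control and 31.24, 31.78 and 34.37 CPM in BrM control. No PC9 comparison passed, with changes of 0.11 ± 0.0638, 0.08 ± 0.0634 and -0.02 ± 0.064 in S100A9-inh against Tr-BrM, S100A9-inh against BrM and Tr-BrM against BrM (adjusted p = 0.166, 0.294 and 0.782, edgeR). In H1650 its levels were 54.55, 58.51 and 55.13 CPM in S100A9-inh, 63.86, 70.79 and 62.77 CPM in Tr-BrM control and 71.23, 74.64 and 72.1 CPM in BrM control. CES2 was lowest in S100A9-inh, below every other library, but the steps were small. It fell by 0.24 ± 0.047 in S100A9-inh against Tr-BrM control (adjusted p = 0.000263) and by 0.14 ± 0.0469 in Tr-BrM control against BrM control (adjusted p = 0.0115). The second call was lost when libraries were scaled by size alone, at -0.06 (adjusted p = 0.326), and without BrM replicate 2 (adjusted p = 0.0612) or Tr-BrM replicate 1 (0.0554) or 3 (0.0836).

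CYP1A1 (ENSG00000140465, chromosome 15, 74719542 to 74725610, reverse strand) oxidises polycyclic aromatic hydrocarbons. In H1650 it was at 78.08, 73.95 and 76.41 CPM in S100A9-inh, 112.0, 107.6 and 106.3 CPM in Tr-BrM control, and 17.84, 16.96 and 17.98 CPM in BrM control. The groups did not overlap and replicates lay within a few percent of one another. CYP1A1 rose by 2.63 ± 0.049 in Tr-BrM control against BrM control (adjusted p = 1.12e-26, edgeR) and fell by 0.51 ± 0.0388 in S100A9-inh against Tr-BrM control (adjusted p = 2.49e-11), staying 4.33-fold above BrM control. In PC9 it had 1 to 13 counts per library, averaging 0.322, 0.132 and 0.321 CPM in S100A9-inh, Tr-BrM control and BrM control, and was not tested. The 3 H1650 genes nearest in pattern were the adhesion molecule NECTIN4, the gene NDRG2 and the growth factor BMP7, at 0.056 to 0.107 log2 units from CYP1A1 among 11667 genes, and BMP7 for example averaged 244, 372 and 66.2 CPM in the same group order.

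CYP1B1 (ENSG00000138061, chromosome 2, 38066973 to 38109902, reverse strand), which hydroxylates oestradiol and activates aromatic procarcinogens, moved the other way between the controls. In PC9 it was at 43.12, 52.79 and 47.97 CPM in S100A9-inh, 35.31, 37.7 and 35.84 CPM in Tr-BrM control and 63.31, 61.13 and 65.02 CPM in BrM control. In H1650 it was at 153.6, 140.1 and 154.2 CPM in S100A9-inh, 172.0, 181.7 and 169.4 CPM in Tr-BrM control and 297.8, 309.5 and 299.2 CPM in BrM control. No groups overlapped in either line, and BrM control was the highest in both. CYP1B1 fell by 0.80 ± 0.0636 in PC9 Tr-BrM control against BrM control and by 0.79 ± 0.0368 in H1650 (adjusted p = 3.26e-12 and 2.64e-17). The difference between these changes, PC9 minus H1650, was -0.01 ± 0.0722 (adjusted p = 0.965). In S100A9-inh against Tr-BrM control CYP1B1 rose by 0.40 ± 0.0651 in PC9 and fell by 0.23 ± 0.0376 in H1650 (adjusted p = 4.93e-06 and 2.9e-05), and this difference between lines, 0.63 ± 0.0746, passed (adjusted p = 3.41e-09). CYP1B1 overlaps the antisense RNA CYP1B1-AS1, with which it shares 9.7% of its 31-base words. Without stated strand their reads cannot be told apart. CYP1B1-AS1 was counted at or under 7.95 CPM in every library, which does not show how the shared reads were assigned. RMDN2 and RMDN2-AS1 overlap CYP1B1 as well. Genes nearest in pattern were KRR1, SOS1 and SANBR in PC9 and FAM234A, HSPG2 and IFT140 in H1650, at 0.054 to 0.062 log2 units.

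CYP2W1 (ENSG00000073067, chromosome 7, 983199 to 989640, forward strand) encodes a P450 with few known natural substrates that is found in fetal gut and in tumours. In H1650 it was at 2.68, 2.95 and 3.53 CPM in S100A9-inh, 9.26, 9.26 and 9.86 CPM in Tr-BrM control, and 0, 0.0910 and 0.118 CPM in BrM control. The BrM libraries held 4 counts in all against 634 in Tr-BrM control, a ratio of 144 with a 95% counting interval from 56 to 530. It rose by 7.06 in Tr-BrM control against BrM control and fell by 1.63 ± 0.136 in S100A9-inh against Tr-BrM control (adjusted p = 1.69e-18 and 1.81e-10, edgeR). The SE of the rise, 0.292, is narrower than the counting interval allows and is no measure of its precision. In PC9 CYP2W1 was rare, at 1.31, 1.34 and 1.13 CPM in S100A9-inh, 0.365, 0.535 and 0.307 CPM in Tr-BrM control and 0.490, 0.972 and 0.836 CPM in BrM control. There it rose by 1.63 ± 0.382 in S100A9-inh against Tr-BrM control (adjusted p = 0.000627), opposite in sign to H1650. The PC9 change in Tr-BrM control against BrM control, -0.92 ± 0.411, missed the threshold (adjusted p = 0.056). It passed without BrM replicate 1, at -1.15 (adjusted p = 0.0269), or without Tr-BrM replicate 2, at -1.18 (0.0438), and with a stricter filter (0.0458). In H1650 the nearest genes in pattern were ZNF750, FOLR1 and WNT6, at 0.334 to 0.478 log2 units.

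The promoters of CYP1A1 and CYP2W1 are shown because both genes were highest in H1650 Tr-BrM control and lower in S100A9-inh; they run from 250 bases before to 50 after the annotated start (RefSeq, GRCh38.p14). The CYP1A1 window is chr15:74725479-74725778 on the reverse strand and the CYP2W1 window chr7:982931-983230 on the forward strand. Capitals mark GCGTG, the core of the xenobiotic response element that the aryl hydrocarbon receptor binds, or its reverse complement CACGC.
CYP1A1: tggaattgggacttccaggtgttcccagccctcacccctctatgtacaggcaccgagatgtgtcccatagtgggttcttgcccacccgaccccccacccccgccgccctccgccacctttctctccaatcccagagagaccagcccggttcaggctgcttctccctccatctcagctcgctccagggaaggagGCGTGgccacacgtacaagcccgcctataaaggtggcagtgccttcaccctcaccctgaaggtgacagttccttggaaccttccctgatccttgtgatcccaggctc
CYP2W1: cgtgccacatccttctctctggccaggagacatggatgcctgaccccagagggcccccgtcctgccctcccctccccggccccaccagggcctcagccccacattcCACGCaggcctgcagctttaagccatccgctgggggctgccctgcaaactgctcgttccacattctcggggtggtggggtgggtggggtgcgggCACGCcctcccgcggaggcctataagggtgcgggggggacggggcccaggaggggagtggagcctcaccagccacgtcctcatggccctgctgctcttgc
CYP1A1 holds 1 such core, 57 bases before the start, and CYP2W1 holds 2, with left ends 144 and 50 bases before it. Of 35116 promoter windows of the same length, 36.5% hold at least 1, so a match of these letters is common. CES2, which changed little, holds 5. A promoter was matched for 6 of the 9 genes (CES2, CYP1A1, CYP2W1, CYP4F11, UGT1A6 and GSTP1), not for CES1, CYP1B1 and CYP24A1.

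The wider aryl hydrocarbon receptor list did not move as 1 block in H1650. Of 13 of its 14 genes that were tested, 5 rose, 5 fell and 3 did not pass in Tr-BrM control against BrM control, with a median change of -0.01 against 0.00 for all genes, of which 32.2% rose and 31.7% fell. CYP1A2, the liver paralogue next to CYP1A1, averaged 2.90 ± 0.286 CPM in S100A9-inh, 2.76 ± 0.273 CPM in Tr-BrM control and 0.110 ± 0.0444 CPM in BrM control, and rose by 4.52 ± 0.338 in Tr-BrM control. CYP2S1, another P450 inducible through the receptor, averaged 34.5 ± 1.07, 36.2 ± 1.81 and 6.48 ± 0.279 CPM in the same order and rose by 2.49 ± 0.0747. CYP1A2 and CYP2S1 changed by 0.08 ± 0.175 and -0.07 ± 0.0554 in S100A9-inh against Tr-BrM control and did not pass, unlike CYP1A1. Other targets went down in Tr-BrM control. TIPARP, a receptor target that feeds back on it, averaged 73.7 ± 0.892 CPM in S100A9-inh, 46.3 ± 2.54 CPM in Tr-BrM control and 82.4 ± 1.86 CPM in BrM control. NQO1, a quinone reductase also driven by NRF2, averaged 262 ± 6.94, 292 ± 13.01 and 613 ± 6.31 CPM. The receptor AHR itself fell by 0.30 ± 0.0589 in H1650 Tr-BrM control against BrM control (adjusted p = 5.92e-05) and its repressor AHRR, at 0.858, 0.793 and 1.23 CPM, did not pass (-0.58 ± 0.303, adjusted p = 0.0956).

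In PC9, 3 of 11 tested genes of that list rose, 6 fell and 2 did not pass in Tr-BrM control against BrM control (median -0.14, all genes 0.00), and 7 rose, 1 fell and 3 did not pass in S100A9-inh against Tr-BrM control (median 0.29). The shares of all genes were 29.6% and 30.3%, then 26.3% and 26.1%. ALDH3A1, an aldehyde dehydrogenase of this pathway, averaged 69.9 ± 6.77 CPM in S100A9-inh, 29.7 ± 0.114 CPM in Tr-BrM control and 51.6 ± 1.37 CPM in BrM control, lowest in Tr-BrM control as CYP1B1 was. ARNT2, a paralogue of the receptor's partner, rose by 2.37 ± 0.0742 in S100A9-inh against Tr-BrM control and fell by 1.45 ± 0.0782 in Tr-BrM control against BrM control. NQO1 in PC9 averaged 889 ± 10.04, 825 ± 11.4 and 646 ± 8.21 CPM in S100A9-inh, Tr-BrM control and BrM control, so the order of its groups was opposite to that in H1650. AHR rose by 0.53 ± 0.101 in PC9 Tr-BrM control against BrM control while CYP1A1 had 1 to 13 counts per library.

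**Figure D3:**
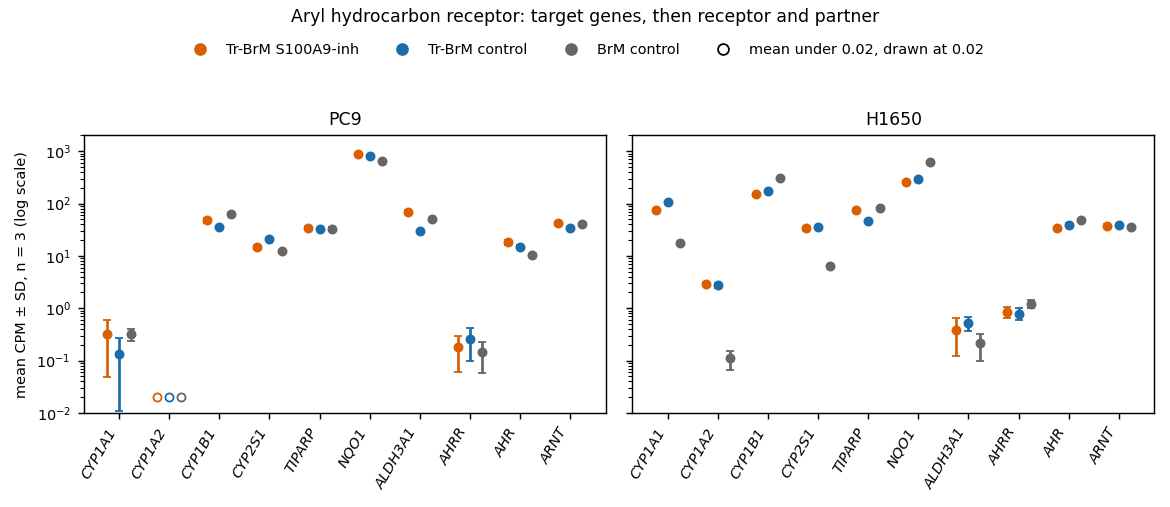
Mean level ± SD (n = 3) of genes of the aryl hydrocarbon receptor list, in CPM on a log axis, with groups from Tr-BrM S100A9-inh through Tr-BrM control to BrM control; error bars that would reach below the axis end at it. In H1650, CYP1A1, CYP1A2 and CYP2S1 are lowest in BrM control, where CYP1B1, TIPARP and NQO1 are highest.

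CYP24A1 (ENSG00000019186, chromosome 20, 54153449 to 54173973, reverse strand), the mitochondrial hydroxylase that inactivates calcitriol, was at 57.34, 59.61 and 57.43 CPM in H1650 S100A9-inh, 56.16, 56.45 and 58.25 CPM in Tr-BrM control, and 1.49, 2.32 and 2.54 CPM in BrM control. The Tr-BrM groups overlapped each other and stood far above BrM control. It rose by 4.77 ± 0.0914 in Tr-BrM control and by 4.80 ± 0.0904 in S100A9-inh, each against BrM control (adjusted p = 2.05e-26 and 1.6e-26, edgeR). In S100A9-inh against Tr-BrM control the change of 0.03 ± 0.0503 did not pass (adjusted p = 0.723), and the counting interval of the ratio ran from 0.977 to 1.07. In PC9 it had 3 to 10 counts per library, and no comparison passed (changes of -0.69 ± 0.53, 0.13 ± 0.585 and 0.82 ± 0.536 in S100A9-inh against Tr-BrM, S100A9-inh against BrM and Tr-BrM against BrM). SHROOM4, IL36RN and EPB41L3 were nearest in pattern to CYP24A1 in H1650, at 0.164 to 0.228 log2 units, and IL36RN, an interleukin receptor antagonist, averaged 107, 102 and 4.11 CPM in S100A9-inh, Tr-BrM control and BrM control.

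Of 11 tested genes of the 12 on the vitamin D list in H1650, 7 rose, 2 fell and 2 did not pass in Tr-BrM control against BrM control (median 0.35, all genes 0.00), while 32.2% of all genes rose and 31.7% fell. The endocytic receptor LRP2 (megalin), which takes up the vitamin D carrier protein, averaged 47.8 ± 1.43 CPM in S100A9-inh, 68.2 ± 1.29 CPM in Tr-BrM control and 0.319 ± 0.0820 CPM in BrM control. The calcium channel TRPV6, a target of the vitamin D receptor, averaged 14.5 ± 0.546, 24.2 ± 0.698 and 1.68 ± 0.282 CPM. Both rose in Tr-BrM control, by 7.75 and 3.84, from few counts of LRP2 in BrM control. Unlike CYP24A1, both fell in S100A9-inh against Tr-BrM control, by 0.51 ± 0.0454 and 0.74 ± 0.0737. The receptor gene VDR averaged 99.8 ± 2.07, 60.2 ± 0.718 and 92.8 ± 2.81 CPM, so its transcript was lowest in Tr-BrM control, where LRP2 and TRPV6 were highest. Its partner RXRA averaged 162 ± 5.10, 219 ± 2.87 and 104 ± 2.0 CPM. CUBN, the partner of megalin at the membrane, fell by 4.12 ± 0.45 in Tr-BrM control against BrM control, to 0.114 CPM against 1.92 CPM. CYP27B1, which makes calcitriol, rose by 0.35 ± 0.153 (adjusted p = 0.0468). In PC9, 2 of 8 tested genes rose, 3 fell and 3 did not pass in Tr-BrM control against BrM control (median 0.11; all genes 29.6% and 30.3%). There VDR rose by 0.45 ± 0.0496, TRPV6 fell by 0.45 ± 0.118, and LRP2 had 3 counts over all 9 libraries.

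**Figure D4:**
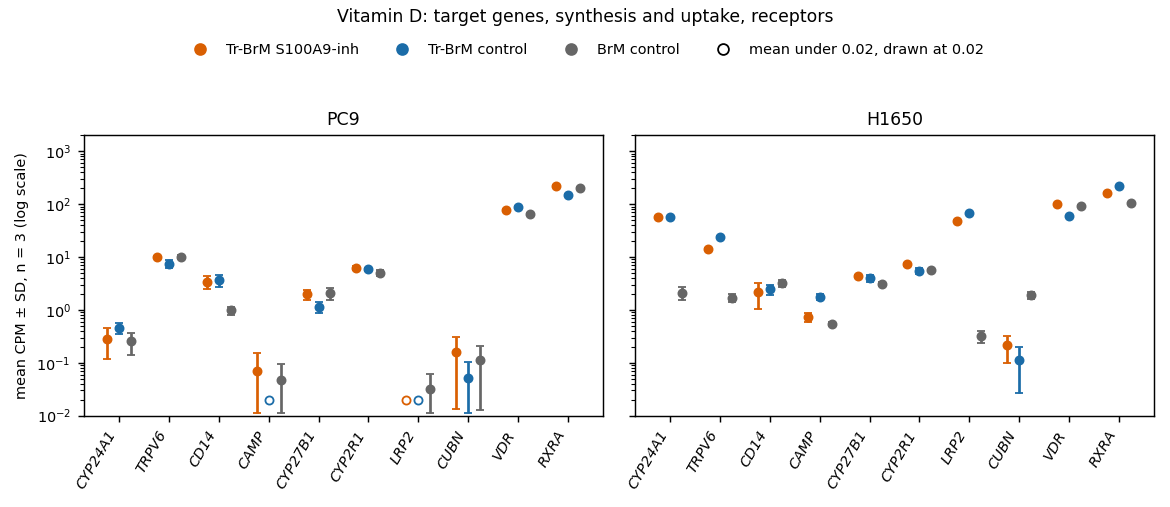
Mean level ± SD (n = 3) of genes of the vitamin D list, in CPM on a log axis, with groups from Tr-BrM S100A9-inh through Tr-BrM control to BrM control; error bars that would reach below the axis end at it. CYP24A1, TRPV6 and LRP2 separate both Tr-BrM groups of H1650 from BrM control, while VDR is lowest in Tr-BrM control.

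CYP4F11 (ENSG00000171903, chromosome 19, 15912367 to 15934867, reverse strand) hydroxylates long-chain fatty acids and vitamin K at the chain end. In PC9 it was at 98.38, 102.5 and 97.66 CPM in S100A9-inh, 134.0, 122.3 and 131.8 CPM in Tr-BrM control and 67.33, 65.5 and 65.11 CPM in BrM control, with no overlap. It rose by 0.97 ± 0.0473 in Tr-BrM control against BrM control (adjusted p = 2.62e-17, edgeR), fell by 0.38 ± 0.0459 in S100A9-inh against Tr-BrM control (adjusted p = 3.59e-08) and stayed 1.51-fold above BrM control. In H1650 it had 3 to 9 counts per library in S100A9-inh, 0 counts in all Tr-BrM control libraries and 1 to 4 counts in BrM control. A count of 0 over the H1650 Tr-BrM group allows up to 0.0447 CPM, counting error only. Its paralogue CYP4F3, a leukotriene B4 hydroxylase that shares 2.8% of its 31-base words, was present in both lines. CYP4F3 averaged 16.9 ± 0.295, 17.5 ± 0.947 and 9.80 ± 0.775 CPM in PC9 and 19.9 ± 0.872, 32.3 ± 1.03 and 12.7 ± 0.875 CPM in H1650, in S100A9-inh, Tr-BrM control and BrM control. It thus rose in Tr-BrM control of both lines, by 0.84 ± 0.0917 and 1.36 ± 0.0698. CYP4F12 fell in H1650 to 3.65 ± 0.942 CPM in S100A9-inh, against 10.6 ± 0.251 CPM in Tr-BrM control and 15.9 ± 0.459 CPM in BrM control. In PC9 the nearest genes in pattern to CYP4F11 were TENM3, GPAA1 and NDUFAF8, at 0.045 to 0.059 log2 units.

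UGT1A6 (ENSG00000167165, chromosome 2, 233691607 to 233773300, forward strand) glucuronidates small planar phenols. It is 1 of several UGT1A genes that have their own first exon and share the rest, and 61.8% of its 31-base words occur in other genes, so reads outside the first exon cannot be assigned. In PC9 it was at 4.5, 4.15 and 4.405 CPM in S100A9-inh, 5.624, 4.573 and 4.858 CPM in Tr-BrM control, and 5.149, 5.734 and 5.666 CPM in BrM control. Levels in S100A9-inh lay below all other libraries, but the steps were small against the spread. UGT1A6 fell by 0.34 ± 0.143 in S100A9-inh against BrM control (adjusted p = 0.0493), and this call was lost in DESeq2 (adjusted p = 0.151), with library size or upper quartile scaling, with no filter, and without any 1 of BrM replicates 2 (0.123) and 3 (0.112), Tr-BrM replicate 3 (0.0507) or S100A9-inh replicates 1 (0.0578), 2 (0.129) and 3 (0.078). The neighbouring UGT1A7, which starts upstream in the same cluster, moved far more, at 0.919, 1.01 and 1.13 CPM in PC9 S100A9-inh, 7.50, 8.81 and 8.54 CPM in Tr-BrM control and 0.539, 0.729 and 0.697 CPM in BrM control. It rose by 3.65 ± 0.203 in Tr-BrM control and fell by 3.02 ± 0.188 in S100A9-inh against Tr-BrM control (adjusted p = 6.88e-16 and 2.01e-14). UGT1A1, the bilirubin transferase, fell by 0.29 ± 0.106 in Tr-BrM control against BrM control. With all UGT1A genes summed the change was 0.27 in Tr-BrM control against BrM control (adjusted p = 0.0039) and -0.58 in S100A9-inh against Tr-BrM control (3.17e-07). The summed sign in Tr-BrM control against BrM control was thus that of UGT1A7 and opposite to that of UGT1A6 (-0.14 ± 0.14, adjusted p = 0.409, not past the threshold). In S100A9-inh against Tr-BrM control the sum, UGT1A7 and UGT1A6 were negative, UGT1A6 without passing (-0.205 ± 0.146, adjusted p = 0.249, edgeR). UGT1A3, UGT1A4 and UGT1A5, scarce and not tested, averaged higher in S100A9-inh than in Tr-BrM control. In H1650 UGT1A6 and UGT1A7 had 0 counts in all 9 libraries, which allows up to 0.0389 CPM in S100A9-inh, 0.0447 CPM in Tr-BrM control and 0.0492 CPM in BrM control.

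GSTP1 (ENSG00000084207, chromosome 11, 67583595 to 67586656, forward strand), the main glutathione transferase of lung and of most carcinomas, differed widely in level between the lines, which were scaled separately. In PC9 it was at 916.2, 830.4 and 846.4 CPM in S100A9-inh, 841.7, 767.5 and 804.5 CPM in Tr-BrM control and 956.4, 969.2 and 945.5 CPM in BrM control. In H1650 it was at 8.88, 20.3 and 14.3 CPM in S100A9-inh, 8.63, 10.7 and 9.38 CPM in Tr-BrM control and 1.85, 2.68 and 5.09 CPM in BrM control. Every PC9 library was at least 767.5 CPM and every H1650 library at most 20.3 CPM. Within H1650 groups the libraries spread widely, most of all in S100A9-inh and BrM control. GSTP1 fell by 0.25 ± 0.0375 in PC9 Tr-BrM control against BrM control and rose by 1.65 ± 0.255 in H1650 (adjusted p = 1.04e-06 and 2e-06), where the groups did not overlap. In S100A9-inh against Tr-BrM control groups overlapped in both lines. The rise of 0.10 ± 0.0375 in PC9 (adjusted p = 0.0214) was lost without S100A9-inh replicate 1, at 0.06 (0.0564), or Tr-BrM replicate 2, at 0.07 (0.184), or 3, at 0.10 (0.0783). The rise of 0.57 ± 0.191 in H1650 (adjusted p = 0.0234) was lost in DESeq2, at 0.59 (0.372), and without S100A9-inh replicate 2, at 0.26 (0.281), or Tr-BrM replicate 1, at 0.51 (0.0868), or 3, at 0.55 (0.0575). In PC9 the genes nearest in pattern to GSTP1 were RALY, HM13 and KRT18, at 0.026 to 0.028 log2 units, and in H1650 PMEL, FABP5P7 and COL6A3, at 0.315 to 0.397.

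The CYP4F11 and GSTP1 promoters are shown because these genes are carried by PC9 at high level and are near 0 or low in H1650 (RefSeq, GRCh38.p14, chr19:15934818-15935117 on the reverse strand and chr11:67583562-67583861 on the forward strand). Capitals mark TGANNNNGC, the core of the antioxidant response element, or its reverse complement; neither window holds GCGTG.
CYP4F11: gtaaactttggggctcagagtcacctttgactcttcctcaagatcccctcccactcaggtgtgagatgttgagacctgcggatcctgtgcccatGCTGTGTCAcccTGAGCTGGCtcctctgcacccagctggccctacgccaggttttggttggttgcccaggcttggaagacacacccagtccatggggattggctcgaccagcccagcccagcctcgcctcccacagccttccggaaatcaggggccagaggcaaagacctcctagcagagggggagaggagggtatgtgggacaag
GSTP1: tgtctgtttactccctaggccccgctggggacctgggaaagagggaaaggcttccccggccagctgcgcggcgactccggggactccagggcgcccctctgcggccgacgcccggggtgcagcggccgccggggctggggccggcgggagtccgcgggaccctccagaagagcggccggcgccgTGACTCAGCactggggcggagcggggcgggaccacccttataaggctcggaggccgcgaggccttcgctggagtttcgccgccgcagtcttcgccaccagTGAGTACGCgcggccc
Each holds 2 such cores, which do not overlap, and 41.8% of the 35116 windows hold at least 1. The window of UGT1A6, also present in PC9 and at 0 counts in H1650, holds no such core. Those of CES2, CYP1A1 and CYP2W1 hold no such core either. The core TGACTCAGC of GSTP1 begins 66 bases before the start. The GSTP1 window has 36 CpG dinucleotides and that of CYP4F11 has 5, against a median of 14 over all windows.

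The changes were compared between lines by the interaction term of 1 edgeR model of all 18 libraries, given as PC9 change minus H1650 change, for the 5 genes that passed the low-count filter in both lines. For Tr-BrM control against BrM control, 3 of 5 differed, against 54.6% of 19076 genes tested: CYP2W1 by -7.96 ± 0.565, CYP24A1 by -3.95 ± 0.572 and GSTP1 by -1.91 ± 0.241 (adjusted p = 9.4e-16, 1.26e-07 and 6.3e-09). CES2 and CYP1B1 did not pass (0.12 ± 0.0789 and -0.01 ± 0.0722). For S100A9-inh against Tr-BrM control, 4 of 5 differed, against 40.4% of genes: CYP2W1 by 3.26 ± 0.36, CYP1B1 by 0.63 ± 0.0746, CES2 by 0.35 ± 0.0787 and GSTP1 by -0.45 ± 0.175 (adjusted p = 6.82e-10, 3.41e-09, 0.000383 and 0.0351). The GSTP1 call was lost with library size scaling (-0.39), in DESeq2 (-0.50, adjusted p = 0.431) and without any 1 of 5 libraries, PC9 Tr-BrM replicate 1 (-0.43) or S100A9-inh replicate 2 (-0.43) and H1650 Tr-BrM replicates 1 (-0.41) or 3 (-0.46) or S100A9-inh replicate 2 (-0.17, adjusted p = 0.402). CYP24A1 did not pass (-0.72 ± 0.445, adjusted p = 0.207). CYP2W1 was the one whose change in each comparison differed by more than 3 log2 units, with the PC9 change resting on 24 counts in Tr-BrM control. The H1650 change of CYP2W1 in Tr-BrM control against BrM control rests on 4 counts in BrM control. CYP24A1 passed the filter in PC9 with only 17 counts in S100A9-inh, 27 in Tr-BrM control and 16 in BrM control. Its differences thus also rest on few PC9 counts. CES1, CYP1A1, CYP4F11 and UGT1A6 were near or at 0 counts in 1 line and did not pass the filter there, so their differences are not read here.

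Around the 9 genes, the enzyme families moved in both directions. Of 11 tested genes on the ester hydrolase list in PC9, 5 rose, 3 fell and 3 did not pass in Tr-BrM control against BrM control. In S100A9-inh against Tr-BrM control 1 rose, 6 fell and 4 did not pass. These counts include the pseudogene CES1P1, which rose in the first comparison and fell in the second. Some reads cannot be assigned between CES1P1 and CES1, so their calls may not be independent. Of all genes 29.6% rose and 30.3% fell in the first comparison and 26.3% and 26.1% in the second. NCEH1, which hydrolyses neutral cholesteryl esters, rose by 1.04 ± 0.0485 and fell by 0.41 ± 0.0469 in these comparisons, as CES1 did, whereas the deacetylase AADAC fell by 1.46 ± 0.152 in Tr-BrM control. In H1650 NCEH1 had the opposite signs, at -1.34 ± 0.045 and 0.54 ± 0.0464, and the paraoxonase PON3 rose by 1.98 ± 0.0966 in Tr-BrM control.

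Of 7 tested P450s of family 4 and the eicosanoid pathway in PC9, 5 rose in Tr-BrM control against BrM control and 2 did not pass (median 0.84, all genes 0.00), while 29.6% of all tested genes rose and 30.3% fell. Beside CYP4F11 and CYP4F3 they were CYP4X1 (1.70 ± 0.475), CYP4V2 (0.44 ± 0.119) and the prostacyclin synthase PTGIS (1.69 ± 0.435). CYP4X1 and PTGIS were scarce, at 0.737 and 0.987 CPM in Tr-BrM control against 0.223 and 0.305 CPM in BrM control. In S100A9-inh against Tr-BrM control 1 of the 7, CYP4F11, fell, against 26.1% of all genes. In H1650 3 of 7 went up, 3 fell and 1 missed the threshold, against 32.2% and 31.7% of all genes, and in S100A9-inh against Tr-BrM control 4 fell and 3 did not pass, against 13.8% that fell among all genes. Among them were CYP4F3 (-0.70 ± 0.0628), CYP4F12 (-1.53 ± 0.123) and PTGIS (-1.70 ± 0.235). Of the P450s of sterols, vitamin D and retinoids, 8 of 13 were up and 4 down by the test in H1650 Tr-BrM control against BrM control (all genes 32.2% and 31.7%), and 1 of 11 rose and 6 fell in PC9 (29.6% and 30.3%). CYP11A1, the cholesterol side-chain cleavage enzyme of steroid-forming tissue, averaged 1.83, 2.54 and 0.0152 CPM in H1650 S100A9-inh, Tr-BrM control and BrM control. CYP39A1, an oxysterol hydroxylase, averaged 2.18, 0.282 and 1.59 CPM in PC9, so it rose by 2.90 ± 0.384 in S100A9-inh against Tr-BrM control. The arachidonic acid epoxygenase CYP2J2 rose by 1.39 ± 0.137 in PC9 Tr-BrM control against BrM control.

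Of 11 electron donors and epoxide hydrolases, 3 rose, 3 fell and 5 did not pass in PC9 Tr-BrM control against BrM control, and 6 rose, 3 fell and 2 did not pass in H1650, against 29.6% and 30.3% of all genes in PC9 and 32.2% and 31.7% in H1650. The P450 reductase POR, on which microsomal P450s depend, averaged 189 ± 11.9, 184 ± 7.22 and 212 ± 4.05 CPM in PC9 and 119 ± 3.47, 142 ± 6.59 and 184 ± 7.99 CPM in H1650, in S100A9-inh, Tr-BrM control and BrM control. The microsomal epoxide hydrolase EPHX1 fell by 1.84 ± 0.057 in H1650 Tr-BrM control, to 35.6 CPM against 127 CPM, and rose by 0.25 ± 0.045 in PC9. Of the glutathione transferases, 3 of 11 rose and 7 fell in PC9 Tr-BrM control against BrM control, and 8 of 12 rose and 3 fell in H1650, against those same shares of all genes. GSTM3 rose in both, by 0.56 ± 0.0528 and 2.08 ± 0.128, while MGST1 rose by 0.40 ± 0.0376 in PC9 and fell by 1.01 ± 0.0357 in H1650. UGDH, which makes the UDP-glucuronic acid that UGT enzymes use, averaged 279, 171 and 279 CPM in PC9 S100A9-inh, Tr-BrM control and BrM control. It fell by 0.71 ± 0.0414 in Tr-BrM control against BrM control and rose by 0.71 ± 0.0415 in S100A9-inh against Tr-BrM control. In H1650 the oestrogen sulfotransferase SULT1E1 rose by 4.62 ± 0.196 and the methyltransferase NNMT fell by 3.69 ± 0.0786 in Tr-BrM control against BrM control.

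The list of xenobiotic receptors and liver-type regulators held both abundant and scarce genes. In PC9 S100A9-inh, Tr-BrM control and BrM control CEBPB averaged 129, 113 and 105 CPM and the pioneer factor FOXA1 64.5, 48.2 and 61.8 CPM, whereas HNF4A and the xenobiotic receptor gene NR1I2 averaged under 1 CPM in all 6 groups and were not tested. CEBPA, a factor of hepatocyte and lung epithelial differentiation, averaged 13.4 ± 2.17 CPM in H1650 S100A9-inh, 20.7 ± 3.39 CPM in Tr-BrM control and 1.19 ± 0.217 CPM in BrM control, and rose by 4.13 ± 0.169 in Tr-BrM control against BrM control. In PC9 CEBPA rose by 0.49 ± 0.164 (adjusted p = 0.0109). FOXA2 fell in PC9 Tr-BrM control, to 0.0495 CPM against 1.55 CPM in BrM control.

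**Figure D5:**
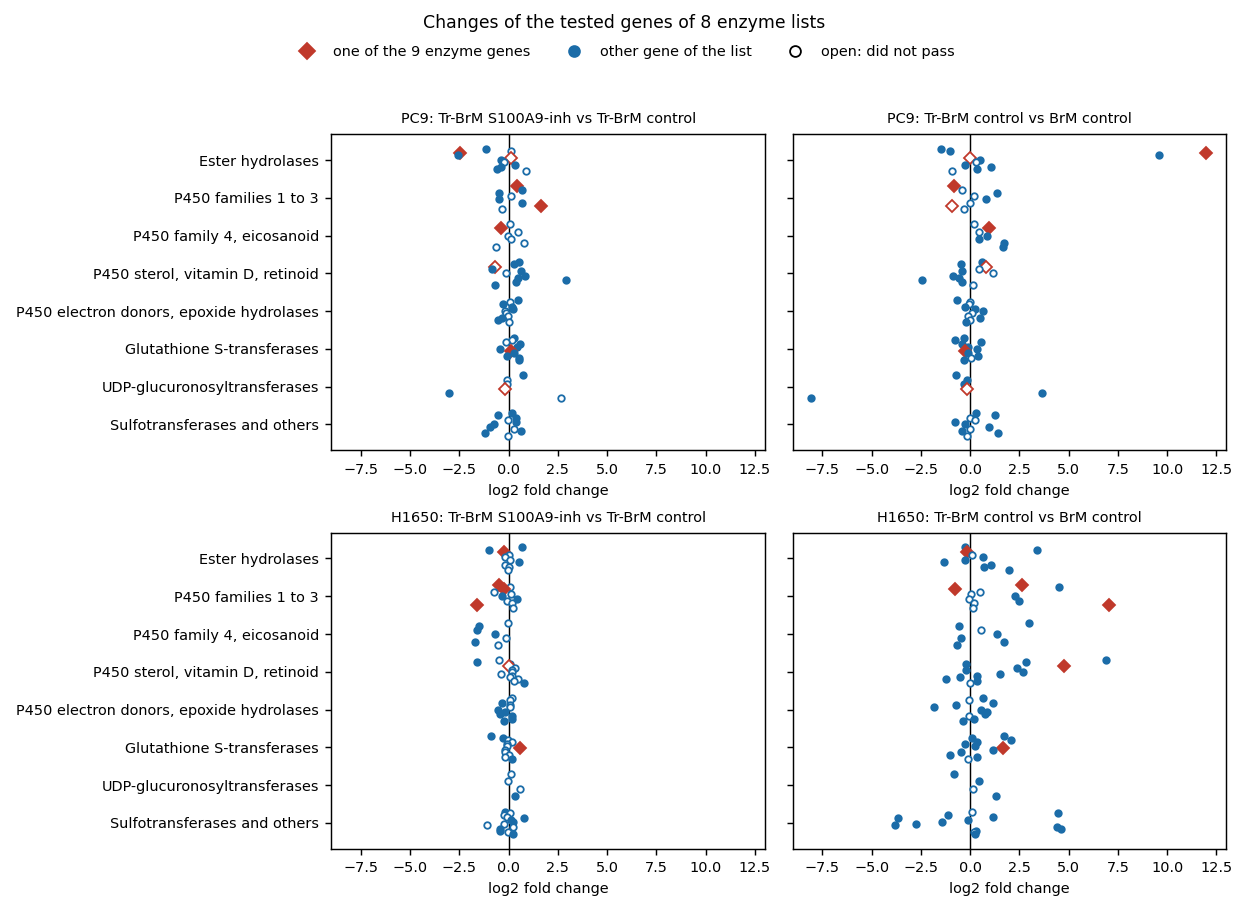
Log2 fold change of every tested gene of 8 enzyme lists, by line (rows) and comparison (columns); diamonds are the 9 enzyme genes and open symbols did not pass an adjusted p of 0.05. Most genes lie within 3 log2 units of 0. Among those farther out in Tr-BrM control against BrM control are CES1 and its pseudogene CES1P1 in PC9, at 11.996 and 9.584. CYP2W1 in H1650 is at 7.06, and further genes of the lists also lie beyond 3.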

How the data were processed

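Per the labels' protocols, libraries compatible with TruSeq were made from poly-A RNA of both lines. For each line the authors deposited whole-number read counts per gene, without normalization. In the submitters' processing notes, STAR, GRCh38, R 4.0.1 and DESeq2 1.28.1 are named. Counting tool, annotation release and strand setting: not given in the sources used here. The number of genes and some Ensembl identifiers differed between the PC9 and H1650 counts, so their annotation was not identical. Columns were matched to samples by their labels. Gene names and positions came from a table of gene names and GENCODE 29, whose exons also gave lengths.

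The 9 libraries of a line went into 1 fit in R 4.3.3 with edgeR 4.0.16 (filterByExpr with a minimum count of 10, TMM scaling, quasi-likelihood test, Benjamini-Hochberg adjustment, threshold 0.05). SE was obtained by dividing the size of the log2 change by the root of its F. It is too small for large changes where 1 group holds few counts. Counting intervals are exact at 95% and, like the floor of 3 counts over a group, cover counting error only. No replicate pair was identical (chi-square per degree of freedom 1.523 to 5.94; the highest values, 5.94 and 5.366, involve PC9 S100A9-inh replicate 1). Since separate cultures are not stated, the spread behind each p-value may be technical. The 9 genes and all lists were chosen with earlier results of these data known. The text names up to 4 genes per list and comparison by smallest p at 1 CPM or more, and a few others chosen after their values were seen; clone and locus names were left out of the nearest genes. Alternatives were other scalings and filters, DESeq2 1.42.0, a fold of 1.5, fewer libraries, summed overlapping genes and each replicate left out. The fit was run on simulated counts with far fewer changed genes than these data, which does not check the scaling used here.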

Additional observations from a re-analysis of the deposited data

Results flagged for a closer look

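The change of 5 genes that passed the low-count filter in both lines was set against itself between lines (PC9 change minus H1650 change), and 7 of these 10 differences passed the interaction test. For Tr-BrM control against BrM control they were -7.96 for CYP2W1, -3.95 for CYP24A1 and -1.91 for GSTP1. For S100A9-inh against Tr-BrM control they were 0.35 for CES2, 0.63 for CYP1B1, 3.26 for CYP2W1 and -0.45 for GSTP1. The last was lost with libraries scaled by size alone (-0.39, adjusted p = 0.0754), in DESeq2 (-0.50, adjusted p = 0.431) and without any 1 of 5 libraries, among them H1650 S100A9-inh replicate 2 (-0.17, adjusted p = 0.402). Among all genes 54.6% and 40.4% differed between lines in these tests. The PC9 change of CYP24A1 rests on 27 counts in Tr-BrM control and 16 in BrM control. The H1650 change of CYP2W1 rests on 4 counts in BrM control.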

How the results depend on the processing

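No paired analysis was possible because the labels give the groups no shared replicate numbers. The number of the 9 genes that passed stayed within 1.5 times its value under all alternatives but 1. When a change of more than 1.5-fold was required (glmTreat), 2 genes passed in PC9 S100A9-inh against Tr-BrM control, against 5 in the test of any change, 1 passed in PC9 S100A9-inh against BrM control, against 5, and 1 passed in H1650 S100A9-inh against Tr-BrM control, against 5. Of 960 single-gene values under an alternative, 899 kept direction and side of the threshold, 44 no longer passed, 5 newly passed and 12 changed sign. Those with a changed sign, 1 apart, did not pass in edgeR before or after. CES2 in PC9 Tr-BrM against BrM was at 0.007 with upper quartile scaling and ran from -0.049 to 0.023 with replicates left out (highest without BrM replicate 3). CYP24A1 in PC9 S100A9-inh against BrM was at -0.137 without BrM replicate 1 and -0.424 without S100A9-inh replicate 3, in a range of -0.424 to 0.507, and in H1650 S100A9-inh against Tr-BrM at -0.006 by library size alone. The PC9 minus H1650 difference of CYP1B1 for Tr-BrM against BrM ran from -0.038 to 0.034 with replicates left out, and was positive in 6 of these (0.004, 0.004, 0.008, 0.011, 0.015 and 0.034). The exception was UGT1A6 in PC9 Tr-BrM against BrM, at 0.265 once all UGT1A genes were summed, by construction. The cause of the other changes was not tested. At this depth genes with under about 10 counts per library, such as CYP24A1 in PC9, have wide errors.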
